A study of Rattus norvegicus with 9 samples.

Results

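The 10 transcripts described here encode proteases of the lysosome, 9 cathepsins (Ctsa, Ctsb, Ctsc, Ctsd, Ctsh, Ctsk, Ctsl, Ctss, and Ctsz) and legumain (Lgmn). They were taken by exact gene symbol from the 35362 genes of the deposited table, and all 10 were found and passed the filter on low counts, as 10 of the 14770 genes tested. Adipose-derived mesenchymal stem cells (ASCs), the plastic-adherent stromal cells of fat, were grown from male Sprague Dawley rats aged 6 weeks, fasted before isolation and otherwise untreated. The cells were sequenced at passage 3, with 3 samples each of SASCs (subcutaneous fat of the groin), PASCs (perirenal fat), and EASCs (epididymal fat). No allele or drug was involved, and the cells were selected by adherence alone. The methods describe 6 replicates per group grown in wells of culture plates, while 3 per group were deposited. All sample labels share a common prefix whose meaning is not given. Neither the labels nor the methods say whether the 3 samples of a depot came from separate rats, so p-values may measure only spread between wells. The set was assembled with these data known, and the split into genes lower in visceral cells on one side and Ctss and Ctsz on the other was part of how it was defined, so its counts by direction are a description and support nothing.

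Cathepsins are made as inactive proenzymes, tagged with mannose 6-phosphate in the Golgi, carried by receptors to endosomes and lysosomes, and activated there at acid pH. The family holds an aspartic protease (cathepsin D), a serine carboxypeptidase (cathepsin A), and a larger group of papain-like cysteine proteases, while legumain is a separate cysteine protease that cuts after asparagine and processes several cathepsins to their mature chains. In fat, stromal cells and resident macrophages both express members of the family, and cathepsin S in particular is known as an enzyme of antigen-presenting cells.

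Total counts were 17591916 to 30299032 per sample, and 3 counts corresponded to 0.104 to 0.159 CPM (each count scaled to a common library size by TMM, which corrects for differences in RNA composition), a limit that covers counting error only. Genes of ribosomal RNA took 10.4% to 15.5% of counts for SASCs, 22.4% to 32.9% for PASCs, and 15.9% to 40.3% for EASCs, but the counts of Rn18s and Rn28s added up to 99.89% to 99.96% of those of Rn45s in every sample, and with Rn18s and Rn28s left out the shares were 5.59% to 8.51%, 12.7% to 19.8%, and 8.69% to 25.4%. The stromal markers Thy1, Nt5e, and Eng had group means between 60.0 and 777 CPM, and the leukocyte marker Ptprc had means of 1.02 in SASCs, 1.62 in PASCs, and 3.06 CPM in EASCs. In such bulk samples, fewer cells of a type and less RNA per cell cannot be told apart. A gene passed the test at an adjusted p under 0.05 (edgeR's quasi-likelihood test, Benjamini-Hochberg over all genes tested), and was counted as a DEG if the fold change was also above 2. EASCs and PASCs were compared with the same SASCs, so the 2 comparisons are not independent.

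The starts of 2 genes are shown because they represent the opposite directions in the data, Ctsd lower and Ctss higher in the visceral cells. The stretches are the 250 bases before the RefSeq start on GRCr8, at chr1:206968822-206969071 on the minus strand for Ctsd and chr2:185775146-185775395 on the plus strand for Ctss, read 5′ to 3′ on the strand of the gene. Capitals mark CACGTG and TCACGTGA, the E-box and the longer E-box bound by TFEB and its relatives, in Ctsd. In Ctss, capitals mark the purine-rich PU.1 motif GAGGAAGT, here as its reverse complement, and an interferon-response type motif of GAAA followed after 2 bases by another GAAA.
Ctsd: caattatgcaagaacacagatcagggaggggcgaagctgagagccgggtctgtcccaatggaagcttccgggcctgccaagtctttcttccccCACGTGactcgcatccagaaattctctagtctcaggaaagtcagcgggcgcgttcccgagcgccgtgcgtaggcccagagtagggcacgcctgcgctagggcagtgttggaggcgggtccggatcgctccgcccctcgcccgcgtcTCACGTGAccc
Ctss: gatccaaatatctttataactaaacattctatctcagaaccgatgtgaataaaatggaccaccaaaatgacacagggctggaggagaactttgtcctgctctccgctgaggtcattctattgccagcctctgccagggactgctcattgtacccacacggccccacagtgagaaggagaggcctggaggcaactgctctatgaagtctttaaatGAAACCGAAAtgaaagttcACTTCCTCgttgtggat

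Ctsd held CACGTG 157 and 10 bases before the start, counted at the first base of the match, and the second match lay inside a TCACGTGA at 11 bases. Of all 33469 promoters in the RefSeq table, 5.59% held CACGTG and 0.657% held TCACGTGA on either strand, and among the 9 members with an entry Ctsd was the only one with either. Ctss held the PU.1 motif 17 bases and the double GAAA motif 36 bases before its start, motifs present in 2.04% and 3.41% of all promoters. Ctsc, which was lower in visceral cells, also held the PU.1 motif, at 248 bases. These are matches of letters, and no binding was measured. Ctsb was not among the promoters used.

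In PASCs and EASCs, most of the family was expressed at a lower level than in SASCs, and Ctss and Ctsz were the exceptions. The summed level of the 10 genes was 5512 to 5808 CPM for SASCs, 2122 to 2184 for PASCs, and 2631 to 2698 for EASCs, and the 3 groups did not overlap. In EASCs 8 genes were lower and 2 higher than in SASCs by adjusted p, where 34.3% of all genes tested were lower and 35.5% higher. Of these, 5 were downregulated DEGs (Ctsa, Ctsb, Ctsc, Ctsd, and Lgmn) and 2 upregulated DEGs (Ctss and Ctsz), against 14.2% and 13.6% of all genes. In PASCs 8 genes were lower and 1 higher by adjusted p, where 34.6% of all genes were lower and 34.6% higher. There, 6 were downregulated DEGs (the same 5 and Ctsh) and 1 an upregulated DEG (Ctss), against 14.9% and 12.0% of all genes. The median log2 fold change of the 10 genes was -1.03 in EASCs and -1.44 in PASCs, and that of all genes tested was 0.0061 and -0.0082. With libraries scaled by total counts instead of TMM, the median of all genes moved to -0.39 in EASCs and -0.33 in PASCs and that of the 10 genes to -1.43 and -1.77, a distance of -1.04 and -1.44 from all genes. The DEGs of the family were then 6 lower and 1 higher in EASCs, and 6 lower and 0 higher in PASCs. Under this scaling, 4775 of all 14770 genes tested were DEGs of either direction in EASCs and 4431 in PASCs.

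**Figure D1:**
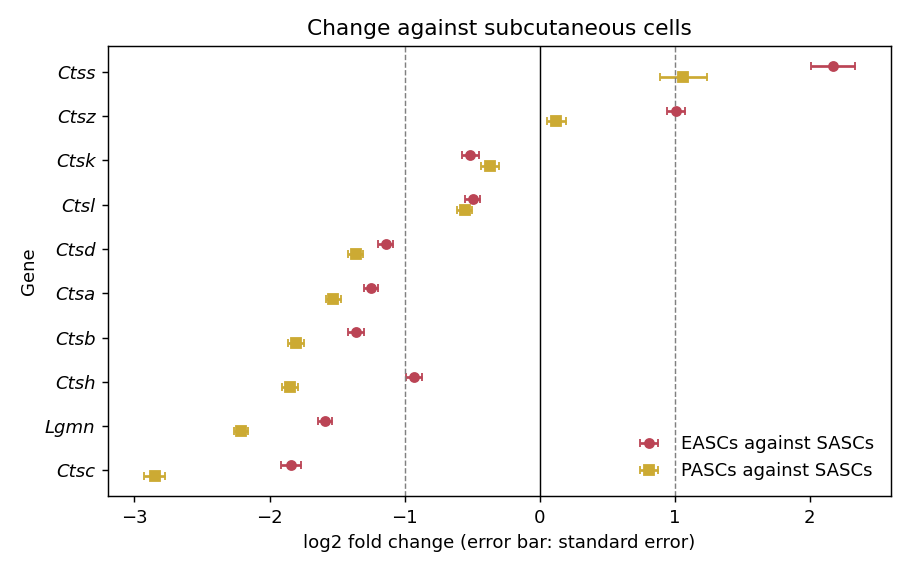
Log2 fold change of each of the 10 genes in EASCs (circles) and PASCs (squares) against SASCs, with the standard error of the fit as bars and dashed lines at a fold change of 2. Ctss lay to the right of 0 in both comparisons, Ctsz at 1.01 in EASCs and 0.12 in PASCs (-0.20 with libraries scaled by total counts), and the other 8 genes to the left of 0 in both.

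Ctsb (chr15:46316741-46337613 on rn6, the build of the deposited positions) encodes cathepsin B, a cysteine protease that cuts both within chains and from their ends. Samples 1 to 3 had 2066, 2125, and 2074 CPM for SASCs, 581, 579, and 633 for PASCs, and 795, 807, and 838 for EASCs. It was downregulated 2.57-fold in EASCs (log2 fold change -1.36 ± 0.056 SE, adjusted p = 6.52e-18) and 3.49-fold in PASCs (log2 fold change -1.80 ± 0.057 SE, adjusted p = 1.53e-20). Every visceral sample lay below every SASCs sample.

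Ctsd (chr1:215541570-215553446) encodes cathepsin D, the main aspartic protease of the lysosome. Samples 1 to 3 had 1271, 1305, and 1196 CPM for SASCs, 518, 482, and 468 for PASCs, and 569.7, 567, and 575 for EASCs. The log2 fold change was -1.14 ± 0.056 SE (adjusted p = 3.30e-16) in EASCs and -1.36 ± 0.057 SE (adjusted p = 7.08e-18) in PASCs, and each visceral group lay below SASCs without overlap. Cttn, annotated over the same span on the same strand, had 0 or 1 count in each sample.

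Ctsl (chr17:1873105-1879266) encodes cathepsin L, an endopeptidase with strong activity on many protein substrates. Samples 1 to 3 had 793, 799, and 763 CPM for SASCs, 542, 539, and 523 for PASCs, and 593, 545, and 532 for EASCs. It was lower in EASCs (log2 fold change -0.49 ± 0.055 SE, adjusted p = 8.55e-09) and PASCs (log2 fold change -0.55 ± 0.055 SE, adjusted p = 1.01e-09), but by less than the fold of 2 required of a DEG. Its visceral samples lay closer to SASCs than those of Ctsb and Ctsd and still did not overlap with them.

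Ctsk (chr2:196655469-196666447) encodes cathepsin K, the collagen-degrading protease best known from osteoclasts and also made by stromal cells. The level was 139.9, 148, and 129 CPM for the SASCs samples, 113, 106, and 104 for PASCs, and 108, 93.4, and 91.3 for EASCs. Its log2 fold change was -0.51 ± 0.064 SE (adjusted p = 6.79e-08) in EASCs and -0.37 ± 0.064 SE (adjusted p = 1.21e-05) in PASCs, where it was the smallest decrease among the 8 lower genes. Of the 5 osteoclast markers in the table, Calcr and Dcstamp had 0 counts in every sample, Oscar and Tnfrsf11a had group means of at most 0.199 CPM, and Acp5 had means of 4.79 in SASCs, 5.70 in PASCs, and 6.49 CPM in EASCs. The overlapping LOC102547324 had 8 to 30 counts per sample, few beside the 1972 to 4025 of Ctsk. The 2 genes of at least 10 CPM nearest to Ctsk in their pair of log2 fold changes were LOC100365839 (-0.51 and -0.37) and Erlec1 (-0.51 and -0.37).

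Among the exopeptidases, Ctsc (chr1:151918516-151949979) encodes cathepsin C, or dipeptidyl peptidase I, which activates serine proteases of leukocyte and mast cell granules. The level was 85.5, 84.4, and 88.5 CPM for the SASCs samples, 10.9, 11.9, and 13.1 for PASCs, and 24.1, 21.9, and 26.0 for EASCs. This was the largest decrease of the family in each comparison, 3.59-fold in EASCs (log2 fold change -1.84 ± 0.074 SE, adjusted p = 3.23e-18) and 7.22-fold in PASCs (log2 fold change -2.85 ± 0.080 SE, adjusted p = 1.13e-21). EASCs lay between the other groups, and the 3 groups did not overlap.

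Ctsh (chr8:97439153-97458293) encodes cathepsin H, an aminopeptidase. Samples 1 to 3 had 268, 296, and 287 CPM for SASCs, 83.6, 79.7, and 72.1 for PASCs, and 155, 145, and 147 for EASCs. It was a DEG in PASCs, lower by 3.60-fold (log2 fold change -1.85 ± 0.061 SE, adjusted p = 3.12e-20), while in EASCs its decrease of 1.90-fold stayed under 2 (log2 fold change -0.93 ± 0.058 SE, adjusted p = 7.03e-14). EASCs again lay between the other groups.

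Ctsa (chr3:161298533-161304627) encodes cathepsin A, a serine carboxypeptidase that also holds neuraminidase and beta-galactosidase in a stable complex. The level was 597, 630.0, and 574 CPM for the SASCs samples, 213, 207, and 205 for PASCs, and 254, 251, and 252 for EASCs. It was downregulated in EASCs (log2 fold change -1.25 ± 0.054 SE, adjusted p = 1.30e-17) and in PASCs (log2 fold change -1.53 ± 0.054 SE, adjusted p = 1.71e-19). Neurl2 and Pltp lie over parts of the gene on the other strand, with 315 to 1209 and 721 to 2655 counts, and because the sources used here do not say whether strand was counted, some reads could belong to either gene. Its partners in the complex were lower as well, Neu1 with log2 fold changes of -1.30 and -1.48 and Glb1 with -0.41 and -0.71 in EASCs and PASCs.

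Lgmn (chr6:126282246-126308207) was lower by 3.01-fold in EASCs and 4.63-fold in PASCs. Samples 1 to 3 had 377, 387, and 369 CPM for SASCs, 80.9, 79.0, and 85.0 for PASCs, and 123, 125, and 129 for EASCs. The log2 fold change was -1.59 ± 0.053 SE (adjusted p = 4.60e-20) in EASCs and -2.21 ± 0.055 SE (adjusted p = 6.03e-23) in PASCs. Among the 8 lower genes only Ctsc decreased by more, and the 3 groups did not overlap.

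Ctss (chr2:197655780-197679768) ran in the other direction. Cathepsin S stays active at neutral pH and trims the invariant chain from MHC class II molecules. The level was 2.33, 2.00, and 2.73 CPM for the SASCs samples, 5.24, 5.08, and 4.29 for PASCs, and 11.5, 10.6, and 9.62 for EASCs. These values rest on 47 to 67 counts for SASCs, 81 to 137 for PASCs, and 215 to 274 for EASCs, the fewest of the family. Ctss was upregulated 4.51-fold in EASCs (log2 fold change 2.17 ± 0.16 SE, adjusted p = 2.50e-12) and 2.09-fold in PASCs (log2 fold change 1.06 ± 0.17 SE, adjusted p = 4.39e-06), and every sample of PASCs lay above every sample of SASCs and below every sample of EASCs. The increase in PASCs was near the fold threshold, and without the second SASCs sample its log2 fold change was 0.96, and with scaling by total counts it was 0.73, either of which left 0 upregulated DEGs of the family in PASCs.

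Ctsz (chr3:172527107-172537877) encodes cathepsin Z, also called X, a carboxypeptidase that removes single residues and is abundant in macrophages. Samples 1 to 3 had 32.9, 32.7, and 28.7 CPM for SASCs, 35.7, 34.6, and 32.4 for PASCs, and 64.6, 64.7, and 60.7 for EASCs. It was 2.01-fold higher in EASCs than in SASCs (log2 fold change 1.01 ± 0.070 SE, adjusted p = 5.46e-13), whereas PASCs and SASCs overlapped and the difference did not pass the test (log2 fold change 0.12 ± 0.072 SE, adjusted p = 0.126, and -0.20 with libraries scaled by total counts). A fold of 2 was just reached in EASCs. Without the third SASCs, the first EASCs, or the second EASCs sample the log2 fold change was 0.95, 0.997, and 0.998, and with DESeq2 it was 0.99 and with scaling by total counts 0.62, so the upregulated DEGs of the family in EASCs were then 1. Nelfcd shares 12 bases with the end of Ctsz on the other strand and had 219 to 457 counts, fewer than the 587 to 1596 of Ctsz.

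Il1rl1 (2.11 and 1.19) was among the genes of at least 10 CPM nearest to Ctss in their log2 fold changes in EASCs and PASCs, at a distance of 0.140. Those nearest to Ctsz were Smad7 (1.00 and 0.057) and Ankrd44 (1.01 and 0.20). This likeness is the Euclidean distance over 2 fold changes of the same 9 samples.

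**Figure D2:**
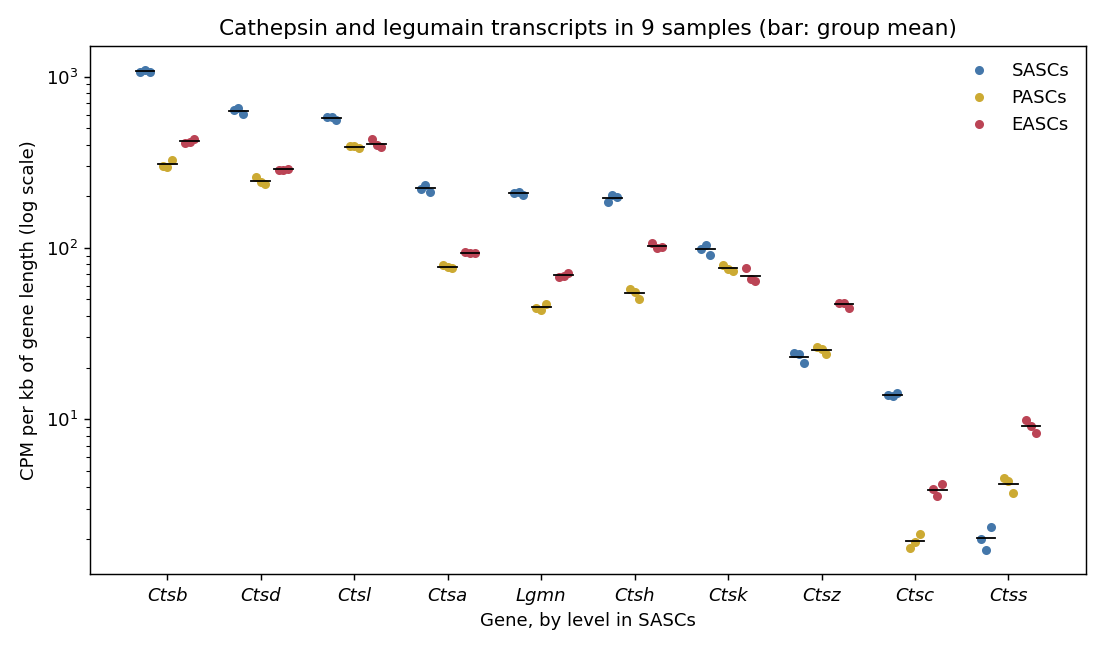
Level of each gene in each of the 9 samples, in CPM per kb of gene length on a log axis, with points for samples and bars for group means. For 7 genes the SASCs points lie clear above both visceral groups with the largest gaps in Ctsc and Lgmn, Ctsk shows the same order with a small gap, and the order is turned in Ctss and, for EASCs, in Ctsz.

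Levels of different genes were compared after division by gene length. In SASCs the order was Ctsb at 1075 ± 16.3 CPM per kb (SD, n = 3), Ctsd at 632 ± 28.0, Ctsl at 571 ± 13.9, Ctsa at 223 ± 10.4, Lgmn at 208 ± 4.88, Ctsh at 196 ± 10.0, Ctsk at 98.1 ± 6.50, Ctsz at 23.2 ± 1.76, Ctsc at 13.9 ± 0.337, and Ctss at 2.02 ± 0.318. Only Lgmn and Ctsh overlapped among neighbours in that order. PASCs had Ctsl first, at 389 ± 7.37 CPM per kb (SD, n = 3), before Ctsb at 308 ± 15.8 and Ctsd at 246 ± 13.0, and Ctsc last, at 1.93 ± 0.180, below Ctss at 4.19 ± 0.439. In EASCs Ctsb at 419 ± 11.3 and Ctsl at 406 ± 23.5 CPM per kb (SD, n = 3) overlapped at the head of the order, and Ctsc was again last, at 3.87 ± 0.335. The other overlapping neighbours were Ctsa and Ctsk in PASCs, and Lgmn and Ctsk in EASCs.

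As a share of the summed CPM per kb of the 10 genes, a measure within each sample that does not depend on the scaling of libraries, Ctsb took 35.3% ± 0.544 (SD, n = 3) in SASCs, 25.1% ± 1.47 in PASCs, and 27.8% ± 1.09 in EASCs. Ctsl took 18.8% ± 0.221 in SASCs, 31.7% ± 0.524 in PASCs, and 26.9% ± 1.14 in EASCs (SD, n = 3), so its share was higher in the visceral cells although its level was lower. Ctsk went the same way, from 3.22% ± 0.132 in SASCs to 6.19% ± 0.163 in PASCs and 4.56% ± 0.339 in EASCs (SD, n = 3). The shares of Ctsz, 0.761% ± 0.0445, 2.06% ± 0.0838, and 3.11% ± 0.109, and of Ctss, 0.0667% ± 0.0122, 0.341% ± 0.0334, and 0.603% ± 0.0461, were each lowest in SASCs and highest in EASCs (SD, n = 3). For these 5 genes both visceral groups lay apart from SASCs (two-sided exact permutation test, p = 0.1 in each comparison, the smallest that 3 against 3 samples allow, so no share could pass a threshold of 0.05). The share of Ctsd was 20.8% ± 0.448 in SASCs, 20.0% ± 0.783 in PASCs, where the groups overlapped (exact permutation p = 0.2), and 19.1% ± 0.342 in EASCs (SD, n = 3), and as a share of raw counts its order in SASCs (22.2%) and PASCs (22.8%) was the reverse. Lgmn, at 6.84%, 3.66%, and 4.60%, Ctsa, at 7.33%, 6.30%, and 6.23%, and Ctsc, at 0.457%, 0.158%, and 0.257%, took their largest mean share in SASCs. Ctsh took 6.45% in SASCs, 4.43% in PASCs, and 6.85% in EASCs.

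**Figure D3:**
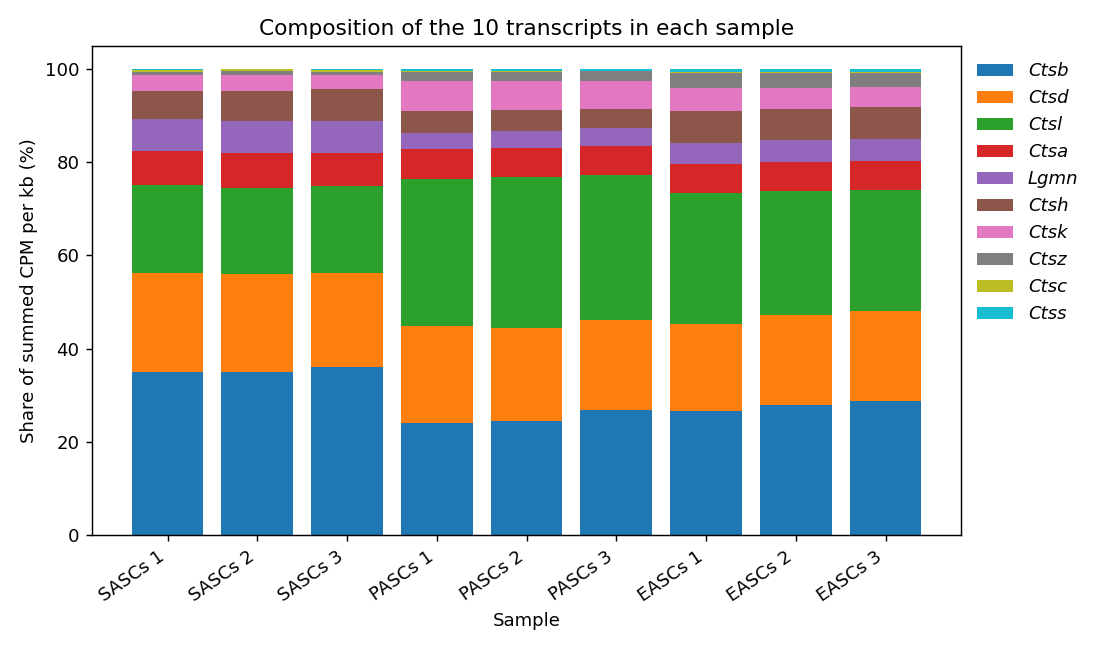
Share of each gene in the summed CPM per kb of the 10 genes, as 1 stacked bar for each sample, in percent. Ctsb is the widest band in SASCs, Ctsl widens to 31.7% in PASCs and 26.9% in EASCs, and Ctsz is visible as a grey band in the visceral samples.

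Compared directly, EASCs had the higher level for most of the family. By adjusted p, 8 genes were higher in EASCs than in PASCs and 0 lower, where 16.1% of all genes tested were higher and 14.5% lower (edgeR's quasi-likelihood test). The DEGs were Ctss (log2 fold change 1.11 ± 0.15 SE, adjusted p = 8.37e-07) and Ctsc (log2 fold change 1.01 ± 0.085 SE, adjusted p = 2.14e-10), 2 upregulated against 5.19% of all genes and 0 downregulated against 2.20%. Ctsh (log2 fold change 0.92 ± 0.060 SE, adjusted p = 1.18e-12), Ctsz (log2 fold change 0.88 ± 0.069 SE, adjusted p = 4.91e-11), and Lgmn (log2 fold change 0.62 ± 0.054 SE, adjusted p = 3.65e-10) followed, and Ctsb, Ctsa, and Ctsd differed by 0.44, 0.28, and 0.22 on the log2 scale. Ctsk (log2 fold change -0.15 ± 0.064 SE, adjusted p = 0.0922) and Ctsl (log2 fold change 0.06 ± 0.055 SE, adjusted p = 0.46, and -0.0079 with libraries scaled by total counts) overlapped between these groups and did not pass the test. The count of 0 lower genes was the same with DESeq2 and limma-voom, and at an unadjusted p under 0.05 it was 1 with each of the 3 tools. Ctsc was just past the fold of 2, and without the first PASCs or the third EASCs sample its log2 fold change was 0.94 and 0.95, which left 1 upregulated DEG. With libraries scaled by total counts, 5 genes passed as higher and 1, Ctss, was a DEG. With the first EASCs sample left out, Ctsk passed the test as lower in EASCs (log2 fold change -0.22, adjusted p = 0.0129), which made 1 lower gene.

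Of 11 further cathepsin genes in the table, 9 did not pass the filter, and the rodent placental cathepsins among them (Ctsq, Ctsr, Ctsj, Ctsm, Ctsll3, Cts7, and Cts8) had 0 counts in every sample. Ctsf, another lysosomal cysteine protease, was downregulated in EASCs (-1.32 ± 0.061 SE, adjusted p = 8.40e-17) and in PASCs (-1.67 ± 0.062 SE, adjusted p = 5.54e-19), with means of 151 CPM in SASCs, 47.3 in PASCs, and 60.6 in EASCs. Ctsw, a protease of cytotoxic lymphocytes, had means of 0.518, 1.76, and 0.713 CPM in SASCs, PASCs, and EASCs and was higher than in SASCs in PASCs (log2 fold change 1.83, adjusted p = 0.000681).

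Endogenous inhibitors of cysteine cathepsins, cystatins and their relatives together with Ctla2a, which resembles a cathepsin propeptide, were represented by 12 genes of which 6 were tested, and 3 were lower and 1 higher in each visceral group, with medians of -0.43 in EASCs and -0.25 in PASCs (-0.84 and -0.58 by total counts). The shares of all genes tested were 34.3% lower and 35.5% higher in EASCs, and 34.6% and 34.6% in PASCs. Cst3, the secreted cystatin C and the most abundant of the list, had means of 297 CPM in SASCs, 96.3 in PASCs, and 129 in EASCs, with log2 fold changes of -1.20 in EASCs and -1.62 in PASCs. Cstb, the intracellular cystatin B, was lower by less, at -0.74 and -0.66. The third lower gene was Kng1, whose kininogen carries cystatin domains, at a mean of 0.618 CPM in SASCs and 0.115 or less in the visceral groups. The higher genes were Ctla2a in EASCs (1.87) and Cst7 in PASCs (1.64), neither above a mean of 1.60 CPM in any group.

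Other soluble lysosomal enzymes and their partners were lower together. All 11 genes of this list passed the test as lower in both visceral groups, with median log2 fold changes of -0.76 in EASCs and -1.12 in PASCs, and 4 and 6 of them were downregulated DEGs (7 and 8, with medians of -1.17 and -1.44, by total counts). The largest decreases were those of the dipeptidyl peptidase Dpp7 (-1.63 in EASCs and -1.77 in PASCs), Neu1, and the tripeptidyl peptidase Tpp1 (-1.12 and -1.44). By adjusted p, 34.3% of all genes tested were lower and 35.5% higher in EASCs, and 34.6% and 34.6% in PASCs. Downregulated DEGs were 14.2% of all genes in EASCs and 14.9% in PASCs. Of 14 genes of the lysosomal membrane, 11 were lower and 2 higher in EASCs, and 10 lower and 1 higher in PASCs, with medians of -0.69 and -0.81. They included Lamp1 (-1.13 and -1.24) and Lamp2 (-0.94 and -1.18), which coat the inner face of the membrane, and the calcium channel Mcoln1 (-1.25 and -0.96). The 18 genes of the V-ATPase, the proton pump that acidifies the lysosome, changed by less, with 10 lower and 2 higher in EASCs, 12 lower and 1 higher in PASCs, and medians of -0.21 and -0.26. Scaled by total counts, 14 V-ATPase genes were lower and 0 higher in each group, with medians of -0.61 in EASCs and -0.59 in PASCs, and 11 membrane genes were lower and 0 higher, with medians of -1.11 and -1.14. Relative to the median of all genes tested, that of the V-ATPase was -0.22 in EASCs and -0.25 in PASCs under both scalings. The V-ATPase genes with the largest decreases in PASCs were Atp6v0e2 (-0.78 in EASCs and -1.14 in PASCs), Atp6v0a1 (-0.82 and -1.09), and Atp6v1b2 (-0.53 and -0.74).

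Genes of the machinery that delivers cathepsins to lysosomes moved in both directions, in shares near those of all genes. Of 12 tested genes of mannose 6-phosphate tagging and sorting, 5 were lower and 4 higher in EASCs, and 3 lower and 4 higher in PASCs, where 34.3% and 35.5% of all genes were lower and higher in EASCs, and 34.6% and 34.6% in PASCs. Their medians were -0.12 and -0.050. With libraries scaled by total counts, 7 were lower and 1 higher in EASCs, and 6 lower and 0 higher in PASCs, with medians of -0.51 and -0.37. The calls therefore depend on the scaling, which moved the median of all genes as well. Relative to that median, the sorting genes stood at -0.13 in EASCs and -0.042 in PASCs by TMM. By total counts these distances were -0.12 and -0.040. Sort1, the receptor sortilin, was an upregulated DEG in EASCs (1.74) and rose by less in PASCs (0.51, but 0.19 with adjusted p = 0.334 by total counts). Igf2r, the large mannose 6-phosphate receptor, was 0.52 and 0.36 higher, but passed in neither group by total counts (0.12, adjusted p = 0.540, and 0.041, adjusted p = 0.841). Scarb2, the receptor of glucocerebrosidase, was 0.63 and 0.79 lower on the log2 scale.

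**Figure D4:**
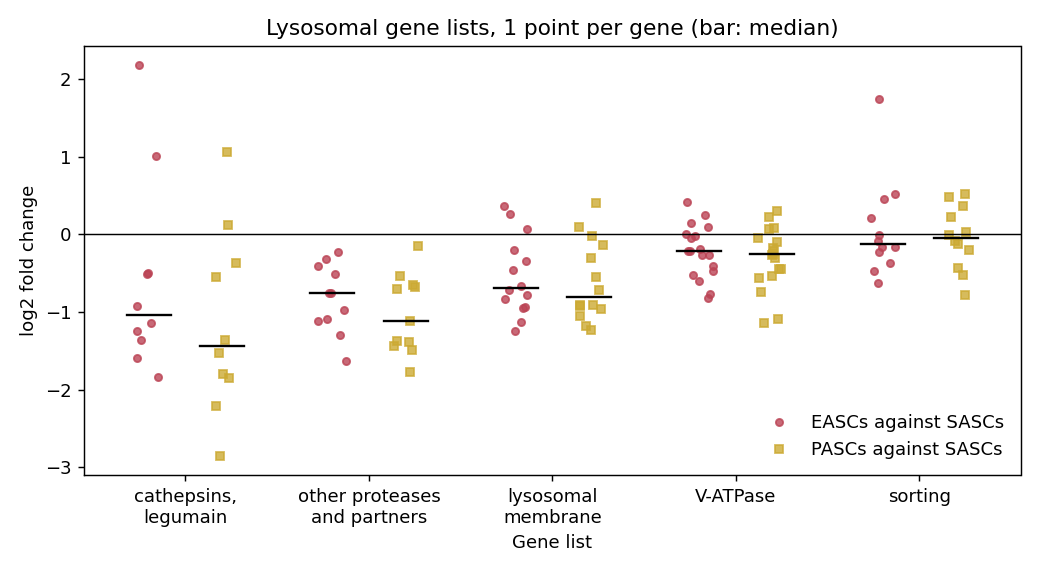
Log2 fold change of each tested gene against SASCs, in EASCs (circles) and PASCs (squares), for the 10 cathepsin and legumain genes and 4 lists of lysosomal genes, with bars at the median. The medians of EASCs run from -1.03 for the cathepsins and legumain through -0.76, -0.69, and -0.21 to -0.12 for the sorting genes. By total counts the same medians were -1.43, -1.17, -1.11, -0.61, and -0.51.

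Of the MiT transcription factors, which switch on lysosomal genes through E-boxes of the kind marked in Ctsd, Mitf was lower, with means of 39.6 ± 2.5 CPM in SASCs, 5.61 ± 0.44 in PASCs, and 2.71 ± 0.54 in EASCs (SD, n = 3), and log2 fold changes of -3.87 in EASCs and -2.82 in PASCs. Tfec, a relative expressed mainly in macrophages, went the other way in EASCs (2.43, adjusted p = 2.89e-09), with means of 0.983, 1.44, and 5.21 CPM in SASCs, PASCs, and EASCs. In PASCs Tfec did not pass the test (0.58, adjusted p = 0.0776). Tfeb was 0.53 higher in EASCs and 0.55 higher in PASCs, but did not pass the test with libraries scaled by total counts (0.13, adjusted p = 0.562, and 0.23, adjusted p = 0.309). Tfe3 had means of 50.8, 53.6, and 59.3 CPM in SASCs, PASCs, and EASCs. It was 0.22 higher in EASCs (adjusted p = 0.00206, but -0.17 with adjusted p = 0.383 by total counts) and did not pass in PASCs (0.08, adjusted p = 0.261, and -0.25 by total counts). The order of groups in Mitf was not that of Ctsd, which had means of 1257, 489, and 570 CPM in SASCs, PASCs, and EASCs. The part of these factors in the level of any cathepsin was not tested.

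Markers of macrophages were higher with Ctss in both visceral groups, and in EASCs with Ctsz, which did not pass the test in PASCs. The list had 20 markers in the deposited counts, of which 19 were tested, and 18 of these were higher and 0 lower in EASCs than in SASCs, while in PASCs 15 were higher and 2, Cd163 and Mrc1, were lower. Among all genes tested, 35.5% were higher and 34.3% lower in EASCs, and 34.6% and 34.6% in PASCs. Cd163 was the 1 tested marker that did not pass in EASCs (0.15, adjusted p = 0.106, and -0.24 with libraries scaled by total counts), and 0.15 was also the lowest log2 fold change of the list in EASCs. With libraries scaled by total counts, 16 were higher and 0 lower in EASCs, and 10 higher and 2 lower in PASCs. The largest increases in EASCs were those of the lysozyme gene Lyz2 (3.04 in EASCs and 2.48 in PASCs) and the complement genes C1qb (2.83 and 1.27) and C1qc (2.82 in EASCs, and 0.69 with adjusted p = 0.0513 in PASCs). The summed level of the 20 markers was 113 to 125 CPM for SASCs, 190 to 193 for PASCs, and 339 to 347 for EASCs, the same order of groups as in Ctss. Cx3cr1 had 0 counts in all SASCs and means of 0.222 and 0.204 CPM in PASCs and EASCs.

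**Figure D5:**
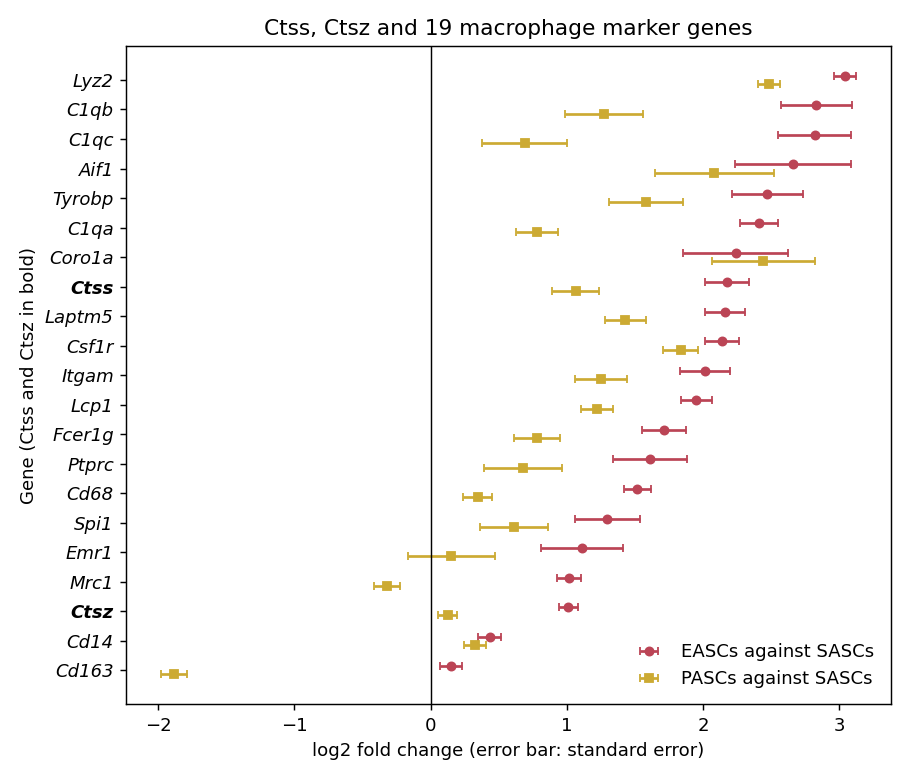
Log2 fold change against SASCs of Ctss and Ctsz (bold) and the 19 tested macrophage markers in EASCs (circles) and PASCs (squares), with the standard error of the fit as bars. Ctss at 2.17 and 1.06 lies inside the range of the markers, and Cd163 is far to the left in PASCs, at -1.88.

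Set against the summed macrophage markers, Ctss amounted to 1.98% ± 0.349 (SD, n = 3) of their CPM in SASCs, 2.54% ± 0.254 in PASCs, and 3.08% ± 0.296 in EASCs, while the level of Ctss itself had means of 2.35, 4.87, and 10.6 CPM. Ctsz amounted to 26.3% ± 2.54 in SASCs, 17.9% ± 0.780 in PASCs, and 18.5% ± 0.877 in EASCs (SD, n = 3). The make-up of the summed markers differed between the groups. Lyz2 had means of 10.4, 58.1, and 85.6 CPM in SASCs, PASCs, and EASCs, and Cd163 had 27.8, 7.52, and 30.8. Both ratios therefore depend on the markers summed. The other 8 genes of the family were each lower in both visceral groups. Genes of MHC class II, whose invariant chain cathepsin S processes, were low, with a summed level over 8 genes of 0.195 to 0.417 CPM for SASCs, 2.59 to 3.06 for PASCs, and 1.12 to 2.09 for EASCs, so their order of groups was not that of Ctss. Of the 8, 6 had at most 3 counts in every SASCs sample, and 4 in every sample of each visceral group. The 2 tested, Cd74 and RT1-Da, were upregulated DEGs in both visceral groups, against 13.6% of all genes in EASCs and 12.0% in PASCs. By total counts 1 of the 2 was an upregulated DEG in EASCs. Cd74, the invariant chain, had means of 0.200, 1.69, and 0.616 CPM in SASCs, PASCs, and EASCs, and RT1-DMa and RT1-DMb had 0 counts in every sample. The part of macrophages in the levels of Ctss and Ctsz was not tested.

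Markers of other cell types were compared between the depots too. By adjusted p, 34.3% of all genes tested were lower and 35.5% higher in EASCs, and 34.6% and 34.6% in PASCs. All 6 tested mesothelial markers were higher in both visceral groups, with a summed level of 18.4 to 20.0 CPM for SASCs, 94.5 to 101 for PASCs, and 129 to 141 for EASCs, and among them Wt1 had log2 fold changes of 4.81 in EASCs and 4.23 in PASCs. This is the order of groups seen in Ctss, and the part of mesothelial cells in its level was not tested. Krt19 was not analysed by the fit, at a mean of at most 0.151 CPM in any group. Of 7 endothelial markers, 4 were lower and 1 higher in EASCs, and 6 lower and 1 higher in PASCs, and their sum was 54.9 to 56.2 CPM for SASCs, 13.9 to 17.0 for PASCs, and 37.9 to 40.8 for EASCs. This is the order of groups seen in the summed cathepsins and in Ctsa, Ctsb, Ctsc, Ctsd, Ctsh, and Lgmn, and its part in their decrease was not tested. Among the 9 stromal markers, 4 were lower and 4 higher in each visceral group (by total counts, 4 lower and 3 higher in EASCs, and 5 lower and 1 higher in PASCs), in both directions like all genes tested. Downregulated DEGs among them were 1 in EASCs and 2 in PASCs, and upregulated DEGs 2 and 0. The platelet-derived growth factor receptor Pdgfra was lower by 2.72 in EASCs and 2.47 in PASCs on the log2 scale. Eng had means of 60.0, 89.8, and 204 CPM in SASCs, PASCs, and EASCs.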

How the data were processed

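RNA of 9 samples, 3 each of SASCs, PASCs, and EASCs, was analysed, with groups and sample numbers taken from the labels. The authors trimmed reads with cutadapt and FastX-Toolkit, aligned them with TopHat to rn6 as the paper says (the labels name rn5, and the scaffold names of the positions are those of rn6), and deposited whole-number counts for 35362 genes without normalization. The tool that counted and any use of strand are not given in the sources used here, so reads of overlapping genes could be shared. Counts were filtered with filterByExpr, scaled by TMM (factors 0.740 to 1.23), and fitted in one model of 3 groups by the quasi-likelihood test of edgeR 4.0.16 in R 4.3.3, with Benjamini-Hochberg adjustment within each of 3 comparisons. The standard error (SE) is the size of the log2 fold change divided by the square root of F. A DEG needed both an adjusted p under 0.05 and a fold change over 2. On simulated counts for EASCs against SASCs, 188 of 200 changed genes among 14770 were recovered, with 9 false calls. The simulation used independent samples, a single dispersion for all genes, and equal numbers of raised and lowered genes. In the data 10298 of 14770 genes passed in this comparison, so the simulation checked the code and does not give the error rate here.

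The members and gene lists were chosen with earlier results of these data known. All 10 members were named, as were at most 3 genes of each list with the largest absolute log2 fold change among those passing the test against SASCs, defining macrophage and MHC class II genes, and for Ctsk, Ctss, and Ctsz the 2 nearest genes of at least 10 CPM. 1 gene selected by these criteria is not reported here. Tfe3, Cst3, Cstb, Glb1, Thy1, Nt5e, Eng, Krt19, the osteoclast genes other than Acp5, the placental cathepsins, and the genes overlapping members were named after their values were seen. Between replicates of a group, chi-square divided by its degrees of freedom was 4.63 to 18.4 without ribosomal genes, above counting noise. Deviations from group means in samples with the same number correlated at -0.025 to 0.059 across genes, so the numbers were not taken to pair samples. Promoters are RefSeq's, on GRCr8, and 9 of 10 members had an entry.

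The alternatives were DESeq2 1.42.0, limma-voom (limma 3.58.1), no filter, total counts without TMM, upper quartile factors, removal of ribosomal genes, a fit of the 2 compared groups alone, a block for replicate number, each sample left out in turn, and shares of raw counts.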

Additional observations from a re-analysis of the deposited data

How the results depend on the processing

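Of 204 recomputed counts of cathepsin and legumain genes, 191 were within 1.5 times the reported count, and of 510 recomputed log2 fold changes 503 kept their direction and their side of an adjusted p of 0.05. With the fold change over 2 that a DEG also needs, 11 of the 510 changed their DEG call, 10 lost (Ctsz in EASCs, Ctss in PASCs, and Ctsc in EASCs against PASCs) and 1 gained (Ctsh in EASCs, by total counts). With total counts in place of TMM, upregulated DEGs were 1 in EASCs, 0 in PASCs, and 1 in EASCs against PASCs, genes passing the test as higher in EASCs against PASCs were 5 (Ctsa, Ctsb, and Ctsd no longer passed), and the values of Ctsz in PASCs (-0.20) and Ctsl in EASCs against PASCs (-0.0079) changed sign. This scaling moved the median of all genes in the same direction. DESeq2 gave 1 upregulated DEG in EASCs. With the replicate block, 1 gene passed as lower in EASCs against PASCs (Ctsk, adjusted p = 0.0482), and no other count or call of the family changed. The sample numbers were not shown to pair the samples. With each sample left out in turn, upregulated DEGs were 1 to 2 in EASCs, 0 to 1 in PASCs, and 1 to 2 in EASCs against PASCs, and genes passing as lower in EASCs against PASCs were 0 to 1. As shares of raw counts, 28 of 30 group shares moved by more than 1 SD, since gene length then enters. Ctss, at 47 to 274 counts per sample, had the largest standard errors of the family. With 3 samples a group, no exact test could pass 0.05.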
